A study of Saccharomyces cerevisiae with 14 samples.

Results

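Ergosterol is the main sterol of yeast membranes and holds the place that cholesterol has in animals. It is built from acetyl-CoA through the mevalonate pathway, whose rate-limiting step is made by HMG-CoA reductase, and then through squalene and a series of demethylations, isomerizations and desaturations in the endoplasmic reticulum. Several of the later steps need molecular oxygen and heme, and the genes are known to be induced by the transcription factors Upc2 and Ecm22 when sterols run low. The 10 genes described here were chosen by name from the 7122 genes of the deposited table. They encode HMG-CoA reductase (HMG1, YML075C, and its paralog HMG2, YLR450W), squalene synthase (ERG9, YHR190W), squalene epoxidase (ERG1, YGR175C), lanosterol 14-alpha-demethylase (ERG11, YHR007C), the C-4 methyl sterol oxidase (ERG25, YGR060W), the C-24 sterol methyltransferase (ERG6, YML008C), the C-8 sterol isomerase (ERG2, YMR202W), the C-5 sterol desaturase (ERG3, YLR056W) and the C-22 sterol desaturase (ERG5, YMR015C). All 10 had a row, and all 10 were among the 6592 genes that passed the filter on low values, a mean of at least 5 normalized counts over the libraries.

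RNA sequencing (RNASeq) was done on 4 chaperone-enriched strains of Saccharomyces cerevisiae Y258, a laboratory strain derived from S288C, to learn how an excess of 1 chaperone changes gene expression. Each strain carried a plasmid that overexpresses (oe) SSC1, the mitochondrial HSP70, or LHS1, an HSP70-family chaperone of the endoplasmic reticulum, or EGD2, part of the complex that binds nascent chains at the ribosome, or TCP1, a subunit of the cytosolic T-complex. There were 11 libraries, 2 for oe EGD2 and 3 for each other strain. Values are given in the order SSC1, LHS1, EGD2, TCP1, and within a strain in the order of the replicate numbers, which for oe EGD2 are 1 and 2. The 3 empty-vector control libraries named in the labels are not analysed here, so every comparison is of the overexpression strains with each other, and a change shared by all 4 cannot be seen. All cells shared the Y258 background and growth at 30 °C with shaking. The labels give medium lacking uracil with 2% glucose and cells in exponential phase, while the methods of the study describe induction by 2% galactose and cells harvested after the diauxic shift, and which of these applied to the RNA was not tested. The galactose genes GAL10, GAL1 and GAL7, which galactose switches on, had 166.6 to 733, 237 to 836 and 42.0 to 417 normalized counts. The strains were purchased, and nothing says how many independent transformants a strain stands for. The authors removed outlying replicates before their differential expression analysis, and whether the deposited libraries are those left is not stated. The methods call the sequenced samples biological triplicates, while the labels give only a replicate number, and p-values measure the spread between these libraries.

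The libraries held 10127206 to 20286329 reads over genes, with a median of 14090055, and the lowest member value rested on 709 reads (HMG2). LHS1 stood at 23647 to 60337 normalized counts in oe LHS1 and at 2211 or less elsewhere, and TCP1 at 22042 to 47002 in oe TCP1 and at 2577 or less elsewhere. EGD2 was at 24039 and 17746 in oe EGD2 against at most 16374 in any other library, and this difference, 1.09 on the log2 scale, did not pass (limma adjusted p = 0.707). SSC1 was at 30045, 82518 and 11336 in the oe SSC1-labelled libraries and at 14940 to 32390 in the others, so only replicate 2 of the oe SSC1-labelled libraries lay above all the rest. Results that rest on this strain are therefore given also with that replicate as its only library, a choice made after seeing the data. By their counts, libraries were often closer to the library with the same replicate number in another strain than to their own strain. Of the 10 closest of all 55 pairs, 7 shared a number across strains and 1 a strain, where 15 and 10 of all 55 do. Most of the 7 were pairs of replicate 1. Other same-numbered pairs, such as oe SSC1 replicate 2 and oe TCP1 replicate 2, were among the most distant. What the numbers mark is not given.

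Several of the genes carry the sequence TCGTATA, the core that Upc2 and Ecm22 are known to bind, in the 500 bases before the start codon. It was found, on either strand, before 5 of the 10 genes, against 420 of the 6000 coding genes with such a window (7.0%). The stretches of the R64 genome around these sites are shown because these factors are known to induce the pathway through this sequence. They are written 5′ to 3′ on the strand of the gene, with TCGTATA or its reverse complement in capitals.
ERG1, chrVII:848759-848845, reverse strand: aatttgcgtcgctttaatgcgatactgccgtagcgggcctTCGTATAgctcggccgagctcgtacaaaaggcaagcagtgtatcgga
ERG25, chrVII:610064-610147, forward strand: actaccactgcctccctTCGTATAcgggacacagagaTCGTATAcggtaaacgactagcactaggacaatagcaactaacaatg
ERG6, chrXIII:253376-253462, reverse strand: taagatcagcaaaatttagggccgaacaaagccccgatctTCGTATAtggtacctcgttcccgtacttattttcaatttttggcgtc
ERG2, chrXIII:667312-667398, forward strand: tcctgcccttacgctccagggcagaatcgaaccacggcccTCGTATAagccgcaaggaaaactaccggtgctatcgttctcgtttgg
ERG3, chrXII:253495-253621, forward strand: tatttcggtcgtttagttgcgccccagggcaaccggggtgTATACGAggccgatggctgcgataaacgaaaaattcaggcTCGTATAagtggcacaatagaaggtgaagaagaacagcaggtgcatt
The site lies 382 bases before the start codon of ERG1, 432 before that of ERG6 and 185 before that of ERG2, where the annotation also places the noncoding RNA170. ERG25 has 2 sites, 483 and 463 bases before its start, and ERG3 has 2 at 326 and 286 bases, of which the farther one lies on the opposite strand. HMG1, HMG2, ERG9, ERG11 and ERG5 have no TCGTATA in this window. The same search found it before 2 of 7 other mevalonate genes, 1 of 7 other sterol genes and 4 of 7 hypoxic genes. The Hap1 motif was found before 0 of the 10 genes and before 0.35% of all windows, and the Rox1 core ATTGTT before 7 of 10 and before 48.9% of all windows. These are matches of letters, and binding was not measured.

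The genes themselves lie on 4 chromosomes. In R64 coordinates, HMG1 is at chrXIII:115734-118898, ERG6 at chrXIII:251839-252990, ERG5 at chrXIII:300869-302485 and ERG2 at chrXIII:667537-668205. HMG2 is at chrXII:1032627-1035764 and ERG3 at chrXII:253861-254958, ERG9 is at chrVIII:484845-486179 and ERG11 at chrVIII:120091-121683, and ERG1 is at chrVII:846933-848423 and ERG25 at chrVII:610564-611493. HMG1, ERG1, ERG11, ERG6 and ERG5 are on the reverse strand. Each is a coding region of a single exon that no other annotated protein-coding gene overlaps, and overlap with noncoding genes was not checked. None of their 50-base words occurs anywhere else in the genome, HMG1 and HMG2 included, so reads of that length that match exactly can be told apart.

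Per kilobase of coding region, the median level over the 11 libraries was highest for ERG25, at 7658 normalized counts per kb, and lowest for HMG2, at 461. ERG6 (6159), ERG3 (5917), ERG11 (5259) and ERG1 (5145) followed ERG25, then ERG2 (3699), ERG9 (3105), ERG5 (1749) and HMG1 (806). Neighbours in this order overlapped throughout, since the libraries of ERG25 alone spanned 2261 to 17365 per kb. Together the 10 genes took between 0.164% (oe EGD2 replicate 2) and 0.923% (oe SSC1 replicate 1) of the normalized counts of a library.

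The first committed step is shared by a pair of isozymes, Hmg1, which carries most of the activity in aerobic cells, and Hmg2, whose protein is degraded when pathway intermediates are plentiful. HMG1 was at 3008, 2689 and 1428 normalized counts in the oe SSC1-labelled libraries, at 2542, 3114 and 2978 in oe LHS1, at 2528 and 1278 in oe EGD2 and at 2551, 1487 and 3406 in oe TCP1. Its 3 lowest libraries came from 3 different strains, and only oe LHS1 and oe EGD2 did not overlap. HMG2 was at 1346, 1342 and 1937, at 1237, 1345 and 1448, at 1934 and 2356 and at 1642, 2167 and 992.5 in the same order. Here too oe LHS1 and oe EGD2 were apart, with oe EGD2 on the upper side, and oe TCP1 spanned the whole range of the gene except its top. The difference between these strains was 0.67 on the log2 scale for HMG1 (oe LHS1 minus oe EGD2), or 0.18 without oe EGD2 replicate 2 and 1.17 without its replicate 1, and 0.67 for HMG2 (oe EGD2 minus oe LHS1), and neither gene passed the limma test among the 4 strains (adjusted p = 0.9643 for both).

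HMG2 exceeded HMG1 in 3 libraries, oe SSC1 replicate 3, oe EGD2 replicate 2 and oe TCP1 replicate 2, and HMG1 exceeded HMG2 in the other 8. The log2 ratio of HMG1 to HMG2 had a mean of 1.096 ± 0.099 for oe LHS1 (SD, n = 3), 0.62 ± 1.16 for oe TCP1 (n = 3), 0.57 ± 0.88 for oe SSC1 (n = 3) and -0.25 ± 0.90 for oe EGD2 (n = 2). Only in oe LHS1 did the replicates lie close together. The gap of 1.34 between the highest and the lowest strain did not exceed the spread, in a two-sided exact permutation test of the 4 strains over all 92400 assignments of the libraries (p = 0.4483). Without oe EGD2 replicate 2 the gap was 0.71. Over the 11 libraries HMG1 and HMG2 were inversely related, with r = -0.86 (permutation p = 0.00012, adjusted over the 45 pairs of members 0.0006) and rho = -0.80 (permutation p = 0.00451, adjusted 0.0127). As deviations from the strain means r was -0.84, and it was -0.80 without the 2 libraries farthest from the median of HMG1. The permutation takes the libraries as interchangeable, although some resembled each other across strains. Both genes also lay along the first principal component of all genes tested, which held 57.2% of the variance (r = -0.83 for HMG1 and 0.76 for HMG2). Whether the relation is particular to this pair was therefore not tested. HMG1 left a gap between 1487 and 2528, below which lay the 3 libraries with more HMG2. The 8 libraries above the gap, a narrower range of HMG1, were picked by the values of these same 2 genes. Within them r was -0.69 (exact permutation p = 0.0494, adjusted over these 2 tests 0.0987). There rho was -0.50 (exact permutation p = 0.2162, adjusted 0.2162), and r was -0.14 without the 2 of them farthest from the median. A relation within those 8 was therefore not established.

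**Figure D1:**
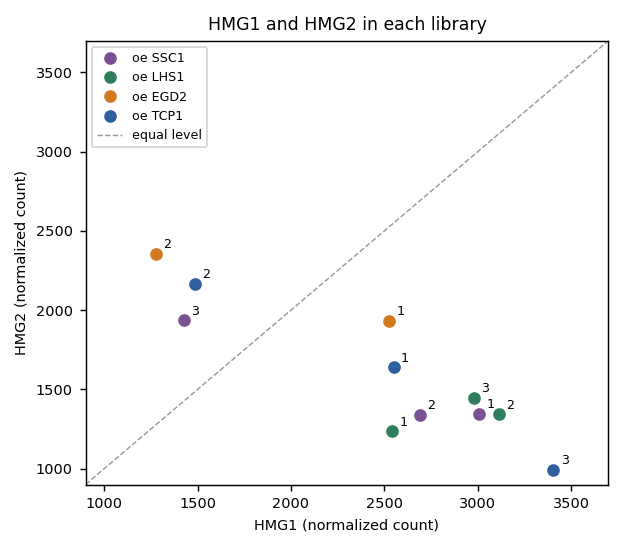
HMG1 (x axis) against HMG2 (y axis) in normalized counts, both axes starting at 900, with 1 point for each of the 11 libraries, coloured by strain and numbered by replicate. The 3 libraries above the dashed line of equal level come from oe SSC1, oe EGD2 and oe TCP1, and the 3 oe LHS1 libraries lie together below it.

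Squalene synthase, Erg9, joins farnesyl units into the first molecule made only for sterols. ERG9 was at 7470.5, 1721 and 4145 normalized counts in the oe SSC1-labelled libraries, 5813, 2830.5 and 2691 in oe LHS1, 5838 and 4152 in oe EGD2 and 3262, 4511 and 2957 in oe TCP1. Its highest and lowest libraries, 4.34-fold apart, were both labelled oe SSC1. Squalene epoxidase, Erg1, makes the first step that needs oxygen and is the target of terbinafine. ERG1 was at 19349.8, 8276 and 7121, at 13921, 6925 and 6607, at 10752 and 4055 and at 9174, 4847 and 7671 in the same order. Replicate 1 was the highest library of ERG1 in every strain. ERG11, whose product is a cytochrome P450 and the target of azole drugs, was at 17812, 7161 and 9952, at 11393, 8378 and 8198, at 10617 and 3569 and at 5599.5, 4824 and 10104. The strain means of ERG11 ran from 6843 ± 2851 in oe TCP1 (SD, n = 3) to 11642 ± 5523 in the oe SSC1-labelled libraries (n = 3).

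ERG25 encodes the oxidase that acts on the methyl groups at C-4. It stood at 16149, 4071 and 9982 normalized counts in the oe SSC1-labelled libraries, 10056.5, 6925 and 7122 in oe LHS1, 10643 and 2103 in oe EGD2 and 4322, 3717 and 8980.2 in oe TCP1. Replicates 1 and 2 of oe EGD2 differed 5.06-fold. Erg6 adds the methyl group at C-24 that cholesterol lacks. ERG6 stood at 15725, 3676 and 3834, at 9617, 7095 and 7487, at 7778 and 1864 and at 4038, 2930.0 and 9406, and oe LHS1 was again the strain with the closest replicates (1.36-fold from lowest to highest). ERG2, for the isomerase that moves the double bond from C-8 to C-7, stood at 8264, 1079 and 2627, at 4635, 2474.5 and 2388, at 4422 and 1254 and at 2169, 1649.6 and 3113. Within the oe SSC1-labelled libraries, ERG2 spanned its full range of 7.66-fold.

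The desaturases close the pathway described here. Erg3 places the double bond at C-5, and ERG3 was at 19602, 2962 and 9986 normalized counts in the oe SSC1-labelled libraries, 11768, 6497 and 6219 in oe LHS1, 11966 and 2006 in oe EGD2 and 3461, 3882 and 7505 in oe TCP1. Its highest library exceeded its lowest 9.77-fold, and its range within a strain was 6.62-fold for the oe SSC1-labelled libraries, 5.96-fold for oe EGD2, 2.17-fold for oe TCP1 and 1.89-fold for oe LHS1. Erg5, the second cytochrome P450 of the pathway, places the double bond at C-22 in the side chain. ERG5 was at 8440.0, 2324 and 3319, at 5129, 2828 and 2787.5, at 3661 and 773 and at 2333, 1667 and 3501, and its 10.9-fold range from oe EGD2 replicate 2 to oe SSC1 replicate 1 was the widest of the 10 genes. HMG2 had the narrowest, at 2.37-fold.

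**Figure D2:**
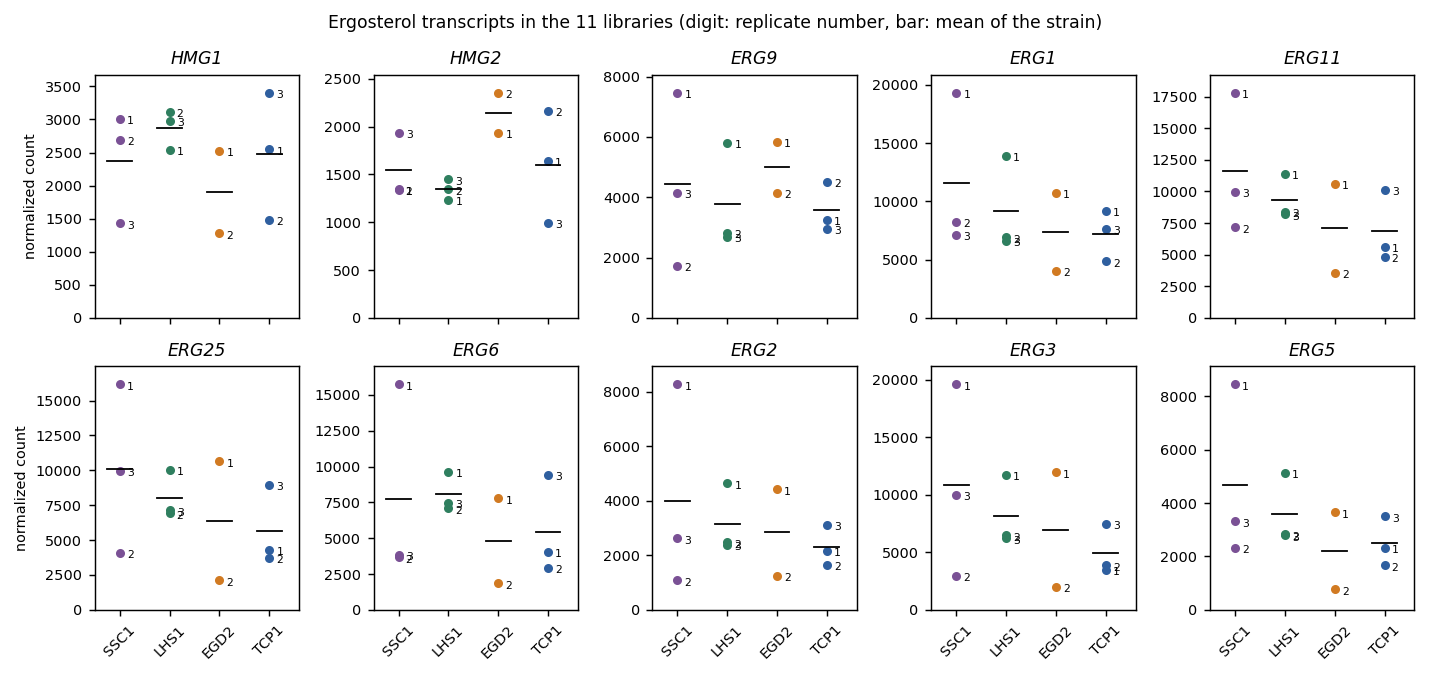
Normalized counts (y axis, from 0) of the 10 ergosterol genes in the libraries of each strain (x axis), where a point is 1 library with its replicate number and a bar is the mean of the strain. oe SSC1 replicate 1 is the highest point for the 8 ERG genes, the strains overlap, and the spread within a strain is wide next to the distance between the bars.

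The same libraries stood at the ends for most of the genes. oe SSC1 replicate 1 was the highest of the 11 for all 8 ERG members, while HMG1 was highest in oe TCP1 replicate 3 and HMG2 in oe EGD2 replicate 2. oe EGD2 replicate 2 was the lowest for 7 members, HMG1, ERG1, ERG11, ERG25, ERG6, ERG3 and ERG5. The mean of the 8 ERG members on the log2 scale, taken relative to each gene's mean over the libraries, was 1.37 in oe SSC1 replicate 1, 0.73 in oe LHS1 replicate 1 and 0.57 in oe EGD2 replicate 1. It was -1.24 in oe EGD2 replicate 2, -0.66 in oe SSC1 replicate 2 and -0.65 in oe TCP1 replicate 2, with the other 5 libraries between -0.39 and 0.23. High and low libraries thus occurred under the same label, among the oe SSC1-labelled libraries and in oe EGD2. Among the oe SSC1-labelled libraries the low one was replicate 2, the library with raised SSC1. The 3 highest were all replicate 1, whereas oe TCP1 replicate 1 was at -0.39, and the part of the replicate number in these levels was not tested.

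Whether the 10 genes differ among the 4 strains was tested with limma on log2(normalized count + 1), fitted on all 6592 genes. By the F test among strains, 0 of 10 members passed an adjusted p of 0.05, where the background was 0.0455% of all genes tested, 3 genes. The members' adjusted p lay between 0.9643 and 0.9856, and 0 of 10 reached an unadjusted p under 0.05, against 0.561% of all genes. edgeR's quasi-likelihood test and DESeq2 also called 0 of 10, and each called 0.0455% of all genes. Between strains lay a median of 19.7% of a member's variance (5.13% to 38.3%), beside a median of 26.5% over all genes tested. With 4 groups in 11 libraries, part of the variance lies between groups even where strains do not differ. These shares were not corrected for that, so they do not show an effect of strain. The standard deviation over the libraries had a median of 0.75 on the log2 scale for the members and 0.44 for all genes tested, and it ranked from the 40.7th percentile (HMG2) to the 88.8th (ERG3).

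Each strain was then compared with the mean of the other 3, where a difference is on the log2(normalized count + 1) scale. In the oe SSC1-labelled libraries, 7 members had higher and 3 lower estimates, with a median difference of 0.35 beside 0.01 for all genes tested, and 0 of 10 were called (background 0.0152% adjusted, 0.895% unadjusted). The farthest from 0 was ERG5, at 0.75 (SE 0.52, 95% interval -0.41 to 1.91, limma adjusted p = 0.9999). The median was 0.55 by edgeR, -0.03 without oe SSC1 replicate 1, 0.78 without its replicate 2, and 0.04 without oe EGD2 replicate 2. It was -0.40 with replicate 2, the library with raised SSC1, as the only one of its strain. That lone library is then assumed to vary like those of the other strains.

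In oe LHS1, 8 members had higher estimates and HMG2 and ERG9 lower ones. The median was 0.34 beside 0.01 for all genes, and 0 of 10 were called (background 0.0152% adjusted, 3.69% unadjusted). ERG6 lay farthest from 0, at 0.73 (SE 0.58, 95% interval -0.55 to 2.02, limma adjusted p = 0.677). ERG6 was at 0.45 by edgeR, and at 0.39 without oe EGD2 replicate 2. The median of oe LHS1 was 0.17 by edgeR, 0.01 without oe EGD2 replicate 2 and 0.59 without its replicate 1.

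In oe EGD2, 8 members had lower estimates, and HMG2 and ERG9 had higher ones. Their median was -0.46 beside -0.01 for all genes, with 0 of 10 called (background 0% adjusted, 2.94% unadjusted). ERG5 was farthest from 0, at -0.93 (SE 0.60, 95% interval -2.26 to 0.40, limma adjusted p = 0.707). HMG2 had the smallest unadjusted p of the contrast, 0.0788, at a difference of 0.55 (SE 0.28, limma adjusted p = 0.707), with both oe EGD2 libraries above all of oe LHS1. This median was -0.29 by edgeR and followed single libraries, being 0.37 without oe EGD2 replicate 2 and -1.19 without replicate 1.

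In oe TCP1, 9 members had lower estimates and HMG1 a higher one. The median was -0.26 beside 0.00 for all genes, and 0 of 10 were called (background 0.0152% adjusted, 0.364% unadjusted). ERG3 lay farthest from 0, at -0.55 (SE 0.65, 95% interval -1.99 to 0.89, limma adjusted p = 0.9998). The median was -0.02 without oe EGD2 replicate 1, -0.59 without its replicate 2 and -0.53 without oe TCP1 replicate 3. ERG3 ran from -0.98 to -0.12 over the same omissions of 1 library. In the 4 single-strain comparisons edgeR called 0.0152%, 0.0152%, 0% and 0.0152% of all genes, and DESeq2 0.0607%, 0.0152%, 0.0303% and 0.0455%, in the order SSC1, LHS1, EGD2, TCP1, and both called 0 of the 10 members in each. Of the 40 intervals, 35 reached past 1 log2 unit on at least 1 side, so a difference of that size lies within them, and 17 had a half-width under 1 log2 unit, all of them of HMG1, HMG2, ERG9, ERG1 and ERG11.

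**Figure D3:**
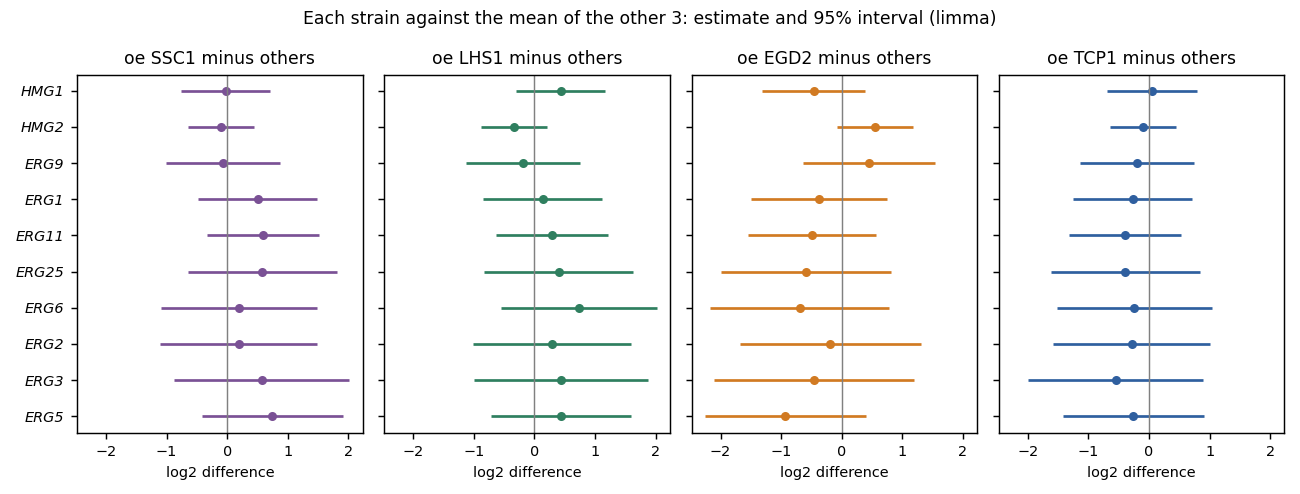
Log2 difference of each strain from the mean of the other 3 (x axis) for the 10 ergosterol genes (y axis), 1 panel for each strain, with points for limma estimates and lines for 95% intervals. All 40 intervals include 0, and the farthest estimate is -0.93, for ERG5 in oe EGD2.

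Although the strains did not separate them, the genes of the later pathway moved together from library to library. Correlations of log2 levels were computed for all 45 pairs of members over the 11 libraries, with p from 100000 permutations adjusted over the 45 pairs. The 7 genes from ERG1 on, that is ERG1, ERG11, ERG25, ERG6, ERG2, ERG3 and ERG5, a set picked after the values were seen, were positively correlated in 21 of 21 pairs, and all 21 passed an adjusted p of 0.05. Of all 45 pairs 25 passed and 36 were positive, with a median r of 0.73, and HMG2 was positive with 1 of its 9 partners (median -0.52). The r of the 7 genes ran from 0.775 to 0.98 with a median of 0.899. These counts of passing pairs are for r. By rho, ERG1 did not pass with ERG2 (rho = 0.68, permutation adjusted p = 0.0533) or with ERG3 (rho = 0.66, permutation adjusted p = 0.0626). Over all pairs of genes tested the median r was 0.00, and 5.82% of pairs reached 0.775, the lowest r of the picked set. The counts for the 7 genes follow in part from how the set was picked, so they describe it and do not test it. Taken as deviations from the strain means, with strains as labelled, the same pairs had r between 0.742 and 0.981. The relation thus held within the labelled groups. Without oe SSC1 replicate 1 the median was 0.852, without oe EGD2 replicate 2 it was 0.872, and without both it was 0.779 (lowest 0.476). The closest pair was ERG25 and ERG3, with r = 0.980 (permutation p = 1e-05, the smallest these permutations can give, adjusted 0.0001125) and rho = 0.964, and r = 0.967 without the 2 libraries farthest from the median of ERG25.

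ERG9 followed less closely. Its correlation with the 7 genes ran from 0.344 to 0.730, and 1 of the 7 passed, the pair with ERG2 (r = 0.73, permutation adjusted p = 0.0207, and rho = 0.60, adjusted p = 0.0980). That r was 0.36 after leaving out the 2 libraries farthest from the median of ERG9, so it rests on them. Whether ERG9 correlates less than the others do was not tested.

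Depth and the main axes of the whole data were set beside these values. The first principal component of all genes tested held 57.2% of the variance and the second 19.0%. Over the 11 libraries the mean of the 8 ERG members had r = -0.15 with the first component, 0.02 with the second and -0.20 with the log2 number of reads, given as descriptions. HMG1 (r = -0.83), HMG2 (0.76) and ERG9 (0.63) lay most closely along the first component. ERG6 was at -0.47, ERG11 at -0.31, ERG5 at -0.29, ERG25 at -0.22, ERG1 at -0.17, ERG3 at -0.08 and ERG2 at -0.01. All of these are negative, while ERG9, which also enters the mean of the 8 ERG members, is positive. The closest pair of libraries by their counts, oe LHS1 replicates 2 and 3, still differed by more than sampling noise (12.5 chi-square units per gene), and both were kept.

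A list of 60 other genes of the sterol pathway was taken by function, in 8 groups. By limma 0 of 60 were called among the 4 strains or in any strain, with 1 at an unadjusted p under 0.05 among the strains (background 0.561% of all genes), 3 in the oe SSC1-labelled libraries (0.895%) and 1 in oe EGD2 (2.94%). edgeR called 0 of 60 as well, in each comparison. DESeq2 called 1, AUS1, an importer of sterols used in anaerobic cells, in the oe SSC1-labelled libraries (DESeq2 adjusted p = 0.0417, limma adjusted p = 0.9999). AUS1 was at 1982, 1187 and 1589 normalized counts there, at 681, 1032 and 1041.5 in oe LHS1, at 783 and 755 in oe EGD2 and at 848, 782 and 731 in oe TCP1. The libraries labelled oe SSC1 lay above all others, by 0.93 on the log2 scale (SE 0.21), and in the one with raised SSC1 the gene was at 1187 against 1041.5 in the next library outside the strain.

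How these lists followed the members is given as the Pearson correlation of each gene with the mean of the 10 members over the 11 libraries, a description with no p, because all points share their libraries. Over all 6582 other genes its median was -0.01. The 7 other mevalonate and farnesyl genes had a median of 0.69, with 7 of 7 above 0, and 0.71 without the libraries at both ends, oe SSC1 replicate 1 and oe EGD2 replicate 2. The most abundant were ERG20, for farnesyl diphosphate synthase, at 2628 to 7340 normalized counts, ERG13, for HMG-CoA synthase, at 2016 to 6764, ERG10, for acetoacetyl-CoA thiolase, at 2282 to 5600, and IDI1, for isopentenyl diphosphate isomerase, at 1776 to 3837. The 7 other genes of the sterol steps had a median of 0.84, all above 0, and 0.59 without those libraries. Among them ERG4, for the reductase of the last step, spanned 2490 to 7177, ERG7, for lanosterol synthase, 1787.5 to 3474.5, ERG24 1182 to 3232 and ERG26 978 to 3501. None of these 14 genes was called, and ERG24, for the C-14 reductase, was the only one with an unadjusted p under 0.05, in the oe SSC1-labelled libraries, where it was at 3232, 1706 and 2320.5 normalized counts. In replicate 2, the library with raised SSC1, it lay below all 3 of oe LHS1 (1984, 1916 and 1810.5).

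The 5 genes outside the members with the highest correlation were MVD1, for mevalonate diphosphate decarboxylase (0.93), ERG10 (0.93), ERG26, for the C-3 sterol dehydrogenase (0.92), SHE3 (0.92), whose product carries mRNAs to the bud, and SRB6 (0.91), a subunit of Mediator. MVD1 was at 3014, 1173.5 and 1338 normalized counts in the oe SSC1-labelled libraries, 2472, 1851.5 and 1969 in oe LHS1, 2318 and 865 in oe EGD2 and 1419, 1239 and 2425 in oe TCP1. Its 4 highest libraries, replicate 1 of the first 3 strains and replicate 3 of oe TCP1, were also the 4 with the highest mean of the ERG members. The 5 lowest were DNF3, for an aminophospholipid flippase (-0.92), HYM1 (-0.91), DPA10 (-0.91), MRX21 (-0.89) and YNL203C (-0.88). DNF3 spanned 1014, in oe SSC1 replicate 1, to 1715, in oe EGD2 replicate 2, the reverse of the members' extremes, and YNL203C never exceeded 38.3.

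Among the electron donors, which feed the oxygen-dependent steps, CYB5, for cytochrome b5, went with the members and MCR1 did not. CYB5 was at 2769.8, 619 and 468 normalized counts in the oe SSC1-labelled libraries, 1592.5, 1032 and 1081 in oe LHS1, 1119 and 211 in oe EGD2 and 728.5, 316 and 1387 in oe TCP1, a 13.2-fold range. MCR1, for the mitochondrial cytochrome b5 reductase, was at 8472, 2050.5 and 9367, 7905, 2832 and 2812, 10649 and 22379 and 9606, 19636 and 2761, with its top in oe EGD2 replicate 2, where CYB5 was lowest. NCP1, for the reductase that serves the P450 enzymes, spanned 3558 to 7930 (its top in oe SSC1 replicate 1) and DAP1, a heme-binding partner of Erg11, 549 to 1274. The median correlation of the 4 genes was 0.73, or 0.64 without oe SSC1 replicate 1 and oe EGD2 replicate 2.

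Of the 7 regulators, 5 had positive correlations, and the median was 0.39, or 0.24 without oe SSC1 replicate 1 and oe EGD2 replicate 2. Without these libraries UPC2 was at 0.24 and ECM22 at -0.63. UPC2 (r = 0.51) was at 2935, 2166 and 1162 normalized counts in the oe SSC1-labelled libraries, 2797, 1130.3 and 1160.3 in oe LHS1, 2168 and 1118.5 in oe EGD2 and 1065, 1376.5 and 704 in oe TCP1. It was above 2000 in the 3 libraries with the highest ERG means and also in oe SSC1 replicate 2, where the ERG mean was low. ECM22 (r = -0.64) was highest, at 1587, in oe EGD2 replicate 2, and lowest, at 820.3, in oe TCP1 replicate 3. The most abundant regulators were HAP1 (3154 to 7205), MGA2 (1668 to 3633), SPT23 (1838 to 4009.7) and ROX1 (844 to 3366).

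Genes of the cell wall and of membranes that yeast is known to induce without oxygen were set beside the members, since the sterol steps use oxygen. Their 7 members had a median correlation of 0.75, all above 0, and of 0.37 without the 2 libraries at the ends. DAN1, for a mannoprotein of anaerobic cell walls, was at 7688.5, 60.3 and 410.3 normalized counts in the oe SSC1-labelled libraries, 743, 60.1 and 74.3 in oe LHS1, 1346 and 69.3 in oe EGD2 and 94.8, 78.0 and 32.2 in oe TCP1. Its 7689 in oe SSC1 replicate 1 was 239-fold above its lowest library. TIR2 was at 12325, 431 and 433, 1309.9, 839 and 814, 3686.5 and 452 and 777, 412 and 416, and TIR1 and TIR3 also peaked in oe SSC1 replicate 1, at 12035 and 9489.7. In the oe SSC1-labelled libraries the 7 estimates were all higher than in the other strains, with a median of 1.03. In oe TCP1 all were lower, with a median of -0.79. By limma, edgeR or DESeq2 0 of 7 were called in any comparison, where 0% to 0.0607% of all genes were. DESeq2 gave no p for TIR2 among the 4 strains. At an unadjusted p under 0.05 in the oe SSC1-labelled libraries, limma had 2 of the 7 (and 59 of all 6592 genes), edgeR 6 (120) and DESeq2 5 (146). Their list median stood at 3.18 on the centred log2 scale in oe SSC1 replicate 1, the library in which the ERG members were also highest, and at -1.13 in oe EGD2 replicate 2, where the ERG members were lowest. In oe SSC1 replicate 2, the library with raised SSC1, it was -0.33. It was -1.20 in oe TCP1 replicate 3, where the ERG mean was 0.23. What part oxygen supply had in the members' levels was not tested.

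HEM13, for the coproporphyrinogen oxidase of heme synthesis, is induced when oxygen or heme is short. It was the heme gene closest to the members (r = 0.77, or 0.60 without oe SSC1 replicate 1 and oe EGD2 replicate 2). It was at 12571, 4410.2 and 4039 normalized counts in the oe SSC1-labelled libraries, 5453, 6601 and 6321 in oe LHS1, 17311.5 and 1955 in oe EGD2 and 5436, 1941.5 and 3228 in oe TCP1. The 8 heme genes as a list had a median correlation of only 0.08, and the abundant HEM1 (2519 to 3572), HEM12 (1884.5 to 3970.1) and HEM15 (1506.0 to 4371) had narrower ranges. None of the 8 was called by the 3 tools, which called at most 0.0607% of all genes in a comparison.

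**Figure D4:**
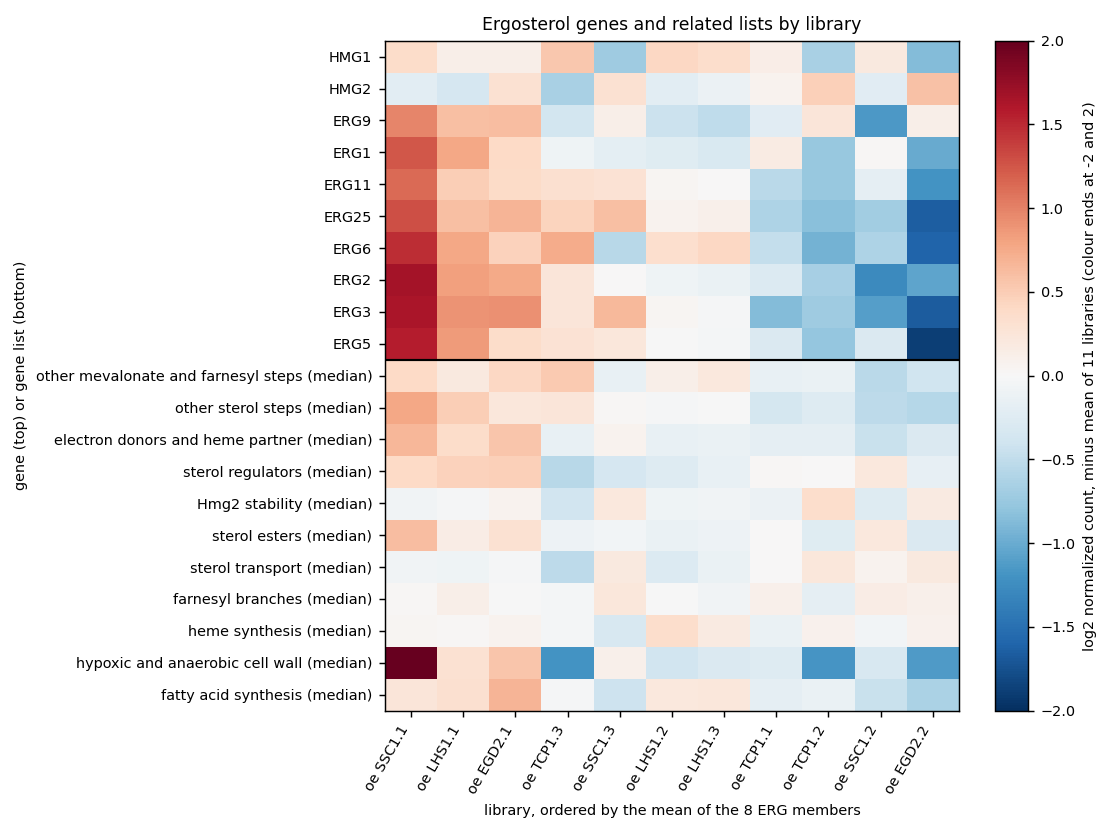
Log2 normalized count relative to the mean of the 11 libraries (colour, ending at -2 and 2) for the 10 ergosterol genes (top) and the medians of 11 related lists (bottom), in libraries (columns) ordered by the mean of the 8 ERG members. Strains are mixed along the order from oe SSC1 replicate 1 (1.37) to oe EGD2 replicate 2 (-1.24), and the hypoxic list, 3.18 in the first column, lies past the colour scale there.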

How the data were processed

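Total RNA was sequenced by the authors as 50-base single-end reads. Per the labels and the study's methods, reads were aligned with STAR 2.3.0e to sacCer3 and counted per Ensembl gene, without regard to strand, with HTSeq 0.6.0 (minimum alignment quality 10). The deposited values are a signal, counts divided by DESeq2 size factors (its version is not given in the sources used here). The authors removed replicates that lay apart in a principal component analysis before testing differential expression. Whether the deposited values are of the replicates left is not stated. Whole reads were recovered from the low values, and 100% of values in each of the 11 libraries came out whole within 0.01. Of the table, 4 emptied lines are not reported here, and libraries held 10127206 to 20286329 reads. Intervals cover the spread between libraries.

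Samples were grouped by their labels. The main test was limma 3.58.1 with a trend (R 4.3.3) on log2(normalized count + 1), a scale that understates changes of low genes, fitted to the genes whose mean reached 5, with all 11 libraries in 1 fit, an F test among the 4 strains and each strain against the mean of the other 3, Benjamini-Hochberg adjusted with a threshold of 0.05. The ratio of HMG1 to HMG2 was tested by exact permutation. The script was tested on simulated data with the same dispersion for every gene. That does not show what it can find in genes as variable as the members. The alternatives were pseudocounts of 0.5 and 10, no filter or a mean of at least 50, equal totals, quantile normalization, no trend, a replicate block, each library left out, and edgeR 4.0.16 and DESeq2 1.42.0 on the recovered reads. Coordinates, gene names and upstream stretches came from RefSeq's R64, the same assembly as sacCer3.

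Genes named are the 10 members, the member farthest from 0 in each comparison, up to 4 genes of each list with the highest mean level or past the threshold, the 4 chaperones and the 5 genes most and least correlated with the members. UPC2, ECM22, AUS1 and the genes of the next section outside this rule were singled out after their values were seen. The members and lists were chosen with earlier results of these data known.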

Additional observations from a re-analysis of the deposited data

How the results depend on the processing

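No member passed the threshold in any comparison under any alternative run, and no gene of the wider sterol list did among the 4 strains. For the single strains that list was rerun only with edgeR, which called 0, and DESeq2, which called 1 (AUS1 in the oe SSC1-labelled libraries). The replicate block, in which 0 members were called, moved the gap of the log2 ratio of HMG1 to HMG2 from 1.34 to 1.33. Of the 15 same-numbered pairs of libraries, 8 deviated together with r above 0.1 (5 of the 6 pairs of replicate 1) and 7 did not, with r from -0.58 to 0.642 in all. The samples were therefore not treated as paired, although some libraries of like number resembled each other. Leaving out 1 library at a time, the difference between the oe SSC1-labelled and the oe EGD2 libraries ran from -0.041 to 1.365 for ERG1 and from -0.29 to 2.05 for ERG25, and ERG5 in oe EGD2 against the other strains ran from -2.05 to 0.19. Each changed sign only without oe EGD2 replicate 2. With replicate 2 as the only library labelled oe SSC1, an alternative chosen after seeing the data, ERG25 against oe EGD2 was -0.22, ERG3 against oe TCP1 was -0.65 and ERG5 against the other strains was -0.045, where all 3 had been positive. The cause was not tested. Of the medians of the members, 3 moved by more than the spread between libraries of a strain (SD 0.71 on the log2 scale), all of them given in the report. That bar is larger than each of the 4 medians in size, so a median could change sign without passing it. The median of the oe SSC1-labelled libraries did so, from 0.35 to -0.03 without replicate 1. Equal totals shifted the median of all genes by -0.10 on the log2 scale in oe EGD2 and by less elsewhere. With 2 or 3 libraries a strain, small differences could not be resolved, and the part of depth was not tested.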

Other observations

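Lists next to the pathway were also followed, described by the Pearson correlation of each gene with the mean of the 10 ergosterol genes over the 11 libraries, with no p. The 7 fatty acid genes had a median of 0.57, with 7 of 7 above 0, and of 0.55 without oe SSC1 replicate 1 and oe EGD2 replicate 2. FAS2 and FAS1, the subunits of fatty acid synthase, spanned 8232 to 23532 and 7383 to 18181 normalized counts, and ACC1, for acetyl-CoA carboxylase, spanned 6198 to 15191, all with their top in oe EGD2 replicate 1. OLE1, for the fatty acid desaturase, which also needs oxygen, spanned 2616 to 25853 with its top in the same library. None of the 7 was called by limma in any comparison, where at most 0.0455% of all genes were.

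Genes that handle finished sterol were mixed. The 15 sterol transport genes had a median correlation of -0.22 and only 2 were above 0. HES1, for an oxysterol-binding protein, was 1 of them, with 0.78. It stood at 2103 normalized counts in oe SSC1 replicate 1 and at 164 in oe EGD2 replicate 2. Without these 2 libraries HES1 had 0.49 and the list a median of -0.25. KES1 spanned 1661 to 4240.2, OSH2 921 to 3600 and OSH3 1978 to 2704.5, and SWH1, at 1648 to 2816, had the lowest correlation of the list, -0.87. The 5 sterol ester genes had a median of 0.46, with 5 of 5 above 0, and ARE2, for an acyltransferase, was at 1149 to 3046.5, YEH1 at 622 to 2868, TGL1 at 1208 to 1892 and YEH2 at 836 to 1772. The 9 genes tied to the stability of Hmg2 had a median of -0.14, which was 0.19 without the 2 libraries. SPF1 spanned 2249.5 to 6393, HRD1, for the ubiquitin ligase that marks Hmg2, 769 to 3674, NSG2 981 to 2258 and NSG1 981 to 2448. HRD1 had its top in oe LHS1 replicate 2. The 6 genes of branches that use farnesyl units without making sterols had a median of -0.02, with RER2 at 1029 to 1880.0, COQ1 at 760.1 to 1872, RAM2 at 728 to 1685 and BTS1 at 392 to 696. The 4 overexpressed chaperones had a median of 0.07 and the 3 galactose genes of -0.47.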
